A study of Mus musculus with 3 samples.

Results

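Monocyte progenitors of mouse bone marrow were taken here as cells that held at least 10 UMIs (counted transcript molecules) of Mpo, at least 1 of Csf1r and at least 1 of either Irf8 or F13a1. Cells with any Siglech, a plasmacytoid dendritic cell gene, were left out, as were cells with 1% or more of their UMIs from Camp, Ngp, Ltf and Lcn2, genes of the late neutrophil granules. Members were thus chosen by the UMI counts of these 9 genes. Of 22376 cells that passed the quality filter, 1245 were members: 283 and 363 in the fusion libraries (replicates 1 and 2) and 599 in the wild-type library. The study asks, by its title, how fusions of the zinc finger protein ZNF384 bear on lineage in leukemia. The fusion libraries carry the genotype label Ep300-Znf384-V5-HA, a fusion of the acetyltransferase gene Ep300 to Znf384 with V5 and HA tags, and the control library is labelled wild type. All 3 came from males aged 6 weeks. Each pooled 5000 live cells of whole marrow, after red cell lysis, with 5000 live cells depleted of lineage-positive cells, so no share given here is that of native marrow. The labels name no promoter for the fusion and do not say whether the libraries came from separate animals, so p-values measure the spread between these samples, which may be technical. There is 1 wild-type library, and genotype and that library cannot be told apart.

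Monocytes arise from bone marrow progenitors that also give rise to neutrophils. Cells on the monocyte path acquire the receptor for macrophage colony-stimulating factor, encoded by Csf1r, and depend on the transcription factor IRF8, with KLF4 acting further along, while C/EBPε and GFI1 act on the granulocyte path. Early cells of both paths store myeloperoxidase (Mpo) and serine proteases in primary granules, and the chemokine receptor CCR2 is known for letting monocytes leave the marrow.

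The libraries held 9057, 8122 and 9354 barcodes in fusion replicate 1, fusion replicate 2 and wild type, of which 7538, 7213 and 7625 were kept, with medians of 7621, 10518 and 7606 UMIs per cell. Members were deeper, with medians of 19476, 23139 and 23843 UMIs and 4526, 4697 and 4872 genes. The raw UMI cut-offs of the gate therefore favoured cells with much RNA. Between 2 and 4 member barcodes per library occurred among the kept cells of another library. The scrublet method predicted 3.53%, 9.92% and 2.67% of the members as doublets, so fusion replicate 2 stood apart in this respect. Ep300 had 50.2 and 40.8 CPM (counts scaled to a common library total, here TMM-adjusted) in fusion members and 61.3 CPM in wild-type members, and Zfp384, the mouse gene for ZNF384, had 27.4 and 20.5 CPM against 15.1 CPM. Ep300 was lower and Zfp384 higher in each fusion library, with log2 fold changes (fusion over wild type throughout, ± standard error) of −0.44 ± 0.16 and 0.65 ± 0.21, and neither passed the edgeR quasi-likelihood test (Benjamini-Hochberg adjusted p = 0.625 and 0.529). The counts have no feature for the fusion transcript, and tags of the fusion and normal alleles could not be separated.

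The genes of the gate describe the members and are given with no test. Members held a median of 60, 66 and 72 Mpo UMIs in fusion replicate 1, fusion replicate 2 and wild type, 1, 2 and 2 of Csf1r, 9, 11 and 14 of Irf8, and 2, 2 and 7 of F13a1, the gene for coagulation factor XIII A, which monocytes make. Csf1r was thinly covered: 146, 151 and 247 members had exactly 1 Csf1r UMI, and 196, 233 and 421 cells met every other condition with 0. At the Mpo border, 25, 27 and 44 members had 10 to 14 Mpo UMIs, and 33, 44 and 63 cells outside had 5 to 9 and met the other conditions. Most members held both Irf8 and F13a1 (185, 241 and 499), fewer held Irf8 alone (98, 119 and 95), and 0, 3 and 5 held F13a1 alone. In summed counts F13a1 had 218 and 199 CPM in fusion members and 404 CPM in wild-type members. Irf8 had 550.0 and 520 CPM in fusion members against 656 CPM in wild-type members, and Csf1r 90.6 and 88.3 CPM against 96.7 CPM.

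Markers outside the gate were detected to different extents. After each cell was thinned to 5000 UMIs, Ly6c2, which encodes a surface antigen of inflammatory monocytes, was found in 57.2%, 57.3% and 60.3% of members (fusion replicate 1, fusion replicate 2, wild type), and Ms4a6c in 66.4%, 65.0% and 81.2%. Progenitor genes were detected too: the stem and progenitor antigen Cd34 was found in 79.5%, 68.6% and 60.0%, and the stem cell factor receptor Kit in 33.2%, 36.9% and 28.8%. The granule protease genes Prtn3 and Ctsg were found in between 93.5% and 99.2% of members of each library, and Elane (neutrophil elastase) in 56.2%, 60.1% and 63.8%. Fn1, a gene of more mature monocytes, was at 1.16, 2.87 and 16.1 CPM, and Klf4 was found in 4.95%, 7.44% and 24.3%. The members thus carried granule, progenitor and monocyte transcripts together. Lymphocytes, gated on Cd79a with Cd79b or Cd3e with Cd3d and no limit on myeloid genes, were taken to gauge free RNA. Their values also hold the gated cells' own transcripts, which could not be told apart from free RNA. The thinned shares in lymphocytes were 25.4%, 19.4% and 29.2% for Ly6c2 and 5.63%, 3.70% and 9.41% for Ms4a6c. Lymphocytes had medians of 2957, 3478 and 3232 UMIs before thinning, and 197, 178 and 405 of them were too shallow to enter.

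Granulocyte progenitors were gated alike, but with at least 10 UMIs of Elane, none of Csf1r and no demand on Irf8 or F13a1. They numbered 161, 205 and 363 cells. Of 10958 genes tested with the library as a block, with the genes of both gates left out, edgeR called 1577 higher (14.4%) and 1867 lower (17%) in monocyte progenitors than in granulocyte progenitors at an adjusted p under 0.05. The gates chose on Csf1r, Irf8, F13a1 and Elane, and genes that vary with these are not independent of that choice. Without the block 1175 genes were called, and 927 when cells were thinned before gating, which gave 66, 90 and 160 monocyte progenitors and 161, 210 and 424 granulocyte progenitors.

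Among called genes of at least 50 CPM, those with the largest differences included Ly86, the partner of an immune pattern receptor, Ms4a6c, the transcription factor gene Klf2, Ighm and the survival gene Bcl2. Ly86 had 185, 135 and 175 plain CPM (on unscaled totals; fusion replicate 1, fusion replicate 2, wild type) in monocyte progenitors and 34.0, 31.4 and 42.0 in granulocyte progenitors. All 3 monocyte progenitor sums lay above all 3 granulocyte progenitor sums, by a log2 difference of 2.07 ± 0.08 (edgeR adjusted p = 3.11e-12). The cytokine receptor gene Flt3, which marks lymphoid and dendritic potential, was higher as well, at 68.4, 48.7 and 49.9 plain CPM in monocyte progenitors and 9.98, 7.39 and 6.43 in granulocyte progenitors (log2 difference 2.74 ± 0.10, edgeR adjusted p = 3.54e-12). Klf4 (2.44), Ccr2 (1.80) and Cx3cr1 (1.65), genes of the monocyte program, were higher on the same log2 scale. Lower genes were led by Prg2 (−8.17), which encodes the eosinophil major basic protein, Fcnb (−5.58), the secreted lectin ficolin B, and Pf4 (−4.15), followed by the granulocyte factor gene Cebpe (−3.33), Pglyrp1 (−3.07), Ms4a3 (−2.68) and S100a8 (−2.55). Pf4, a platelet gene, stood at 558.9 plain CPM in the granulocyte progenitors of fusion replicate 2 and at most 3.79 in those of the other libraries, so 1 library carried that difference. Ly6c2 (log2 difference −0.07 ± 0.06), Spi1 (−0.03 ± 0.04), the gene for the myeloid factor PU.1, and the receptor gene Csf2rb (0.04 ± 0.08) were not called.

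**Figure D1:**
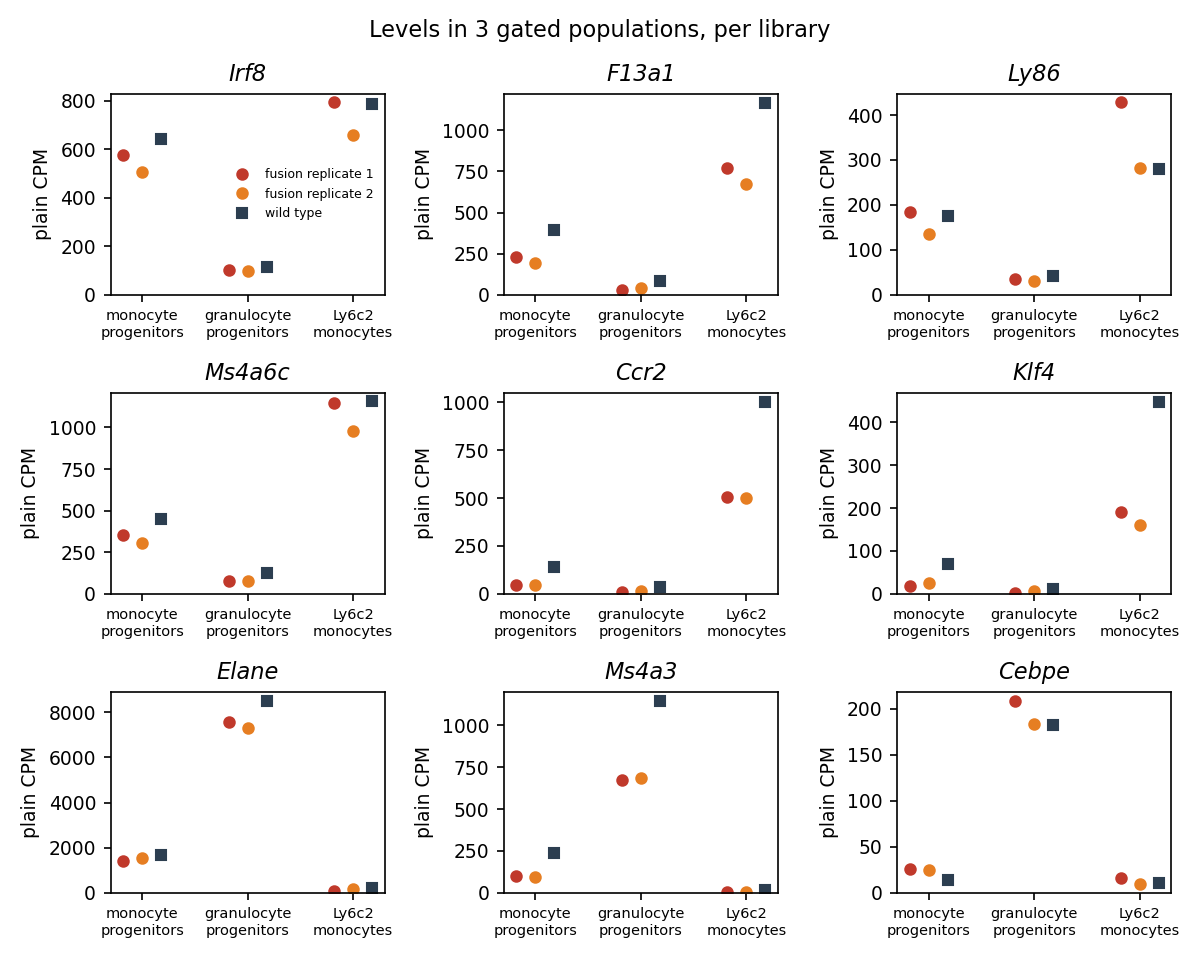
Levels of 9 genes in plain CPM (y axis) in monocyte progenitors, granulocyte progenitors and Ly6c2 monocytes (x axis), with 1 point per library: circles for the fusion libraries and squares for wild type. Within each library Irf8, F13a1, Ly86, Ms4a6c, Ccr2 and Klf4 are highest in the monocytes and lowest in the granulocyte progenitors, with monocyte progenitors between, while Elane, Ms4a3 and Cebpe peak in granulocyte progenitors; Irf8 and F13a1 were used by the monocyte gates and Elane by the granulocyte gate.

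Monocyte progenitors took a smaller share of the fusion libraries. They made up 3.75% (Clopper-Pearson 95% interval 3.34 to 4.21%) and 5.03% (4.54 to 5.56%) of the kept fusion cells, against 7.86% (7.26 to 8.48%) of wild-type cells. The fusion mean was 4.39% ± 0.90 (SD, n = 2), 0.559 times the wild-type share. The intervals of both fusion libraries lay below that of wild type and also apart from each other, and they cover counting error only. The two-sided exact permutation test gave p = 0.333, which is the smallest the 3 labellings allow. Among cells with at least 10 Mpo UMIs (705, 925 and 1378 cells), members made up 40.1% and 39.2% in fusion, against 43.5% in wild type, a ratio of 0.913, and the intervals of fusion replicate 1 (36.5 to 43.9%), fusion replicate 2 (36.1 to 42.5%) and wild type (40.8 to 46.1%) overlapped. Both fusion shares lay below that of wild type, and the exact permutation test again gave 0.333, the smallest it allows. With every cell thinned to 5000 UMIs before gating, 1.40% and 1.72% of fusion cells were members, against 3.29% of wild-type cells. The smaller share was not particular to monocyte progenitors. Of 7538, 7213 and 7625 kept cells (fusion replicate 1, fusion replicate 2, wild type), granulocyte progenitors numbered 161, 205 and 363. Ly6c2 monocytes numbered 233, 219 and 359, and lymphocytes 268, 286 and 607.

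**Figure D2:**
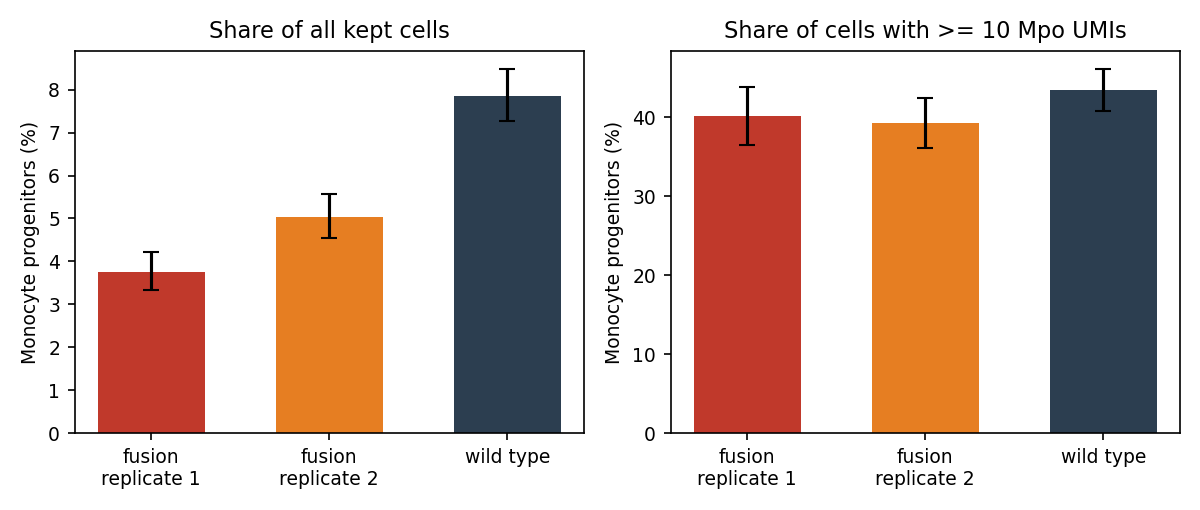
Monocyte progenitors as a percentage of all kept cells (left) and of cells with at least 10 Mpo UMIs (right) in each library, with Clopper-Pearson 95% intervals as error bars. The fusion bars, 3.75% and 5.03%, stand below the wild-type bar of 7.86% on the left, while the 3 intervals overlap on the right.

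Within monocyte progenitors, UMI counts were summed per library and tested with edgeR. Of 11648 genes tested, 4 were higher in fusion (0.0343%) and 15 lower (0.129%) at an adjusted p under 0.05, and at an unadjusted p under 0.05 there were 307 (2.64%) and 483 (4.15%), together 6.78%. Only the pair of fusion libraries gave an estimate of spread, with 1 residual degree of freedom, and the test takes wild type to have the same spread. The genes that fell included the chemokine receptors Ccr2 and Cx3cr1, the monocyte factor Klf4, the macrophage gene Mpeg1, Ms4a3 and the cell cycle gene Ccnd1, while Apoe, Spp1, Cpa3 and Pglyrp1 rose. No gene was called with Mpo of at least 5 UMIs (682 at an unadjusted p under 0.05), with 283 cells per library (707) or with no filter on low counts (841), while 58 were called without cells holding genes of other lineages and 76, of which 25 were higher, with DESeq2 size factors. DESeq2's own test called 20, of which 4 were higher.

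Ccr2 (chromosome 9, 124101950 to 124113557, GRCm38) had 41.7 and 46.4 CPM in fusion members and 145 CPM in wild-type members. The fusion libraries were close to each other and far below wild type, and the log2 fold change was −1.72 ± 0.15 (edgeR adjusted p = 0.00743). At 5000 UMIs per cell, Ccr2 was found in 12.7% and 15.4% of fusion members (Clopper-Pearson 9.07 to 17.2% and 11.9 to 19.6%), against 42.4% (38.4 to 46.5%) of wild-type members. In lymphocytes it was found in 8.45% and 8.33% in fusion, against 11.9% in wild type, so the intervals of members and lymphocytes overlapped in the fusion libraries (3.17 to 17.5% and 3.88 to 15.2% in lymphocytes) and were apart in wild type (7.76 to 17.2%). Cx3cr1, the fractalkine receptor gene (chromosome 9, 119901616 to 120069879), had 15.5 and 17.7 CPM in fusion members and 37.8 CPM in wild-type members (−1.18 ± 0.16, edgeR adjusted p = 0.0485). It was lower in each fusion library, and it was called in 4 of the 16 alternative settings that tested it.

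Klf4 (chromosome 4, 55527143 to 55532466) had 17.1 and 24.9 CPM in fusion members and 70.2 CPM in wild-type members. The fusion libraries differed from each other by less than either did from wild type, and the log2 fold change was −1.72 ± 0.19 (edgeR adjusted p = 0.0191). It was found in 4.95% and 7.44% of thinned fusion members, against 24.3% of wild-type members, and in 7.04% and 5.56% of fusion lymphocytes, against 17.3% of wild-type lymphocytes. In each library the intervals of members and lymphocytes overlapped, so by this measure members and lymphocytes were not separated. Of 14 monocyte transcription factor genes tested, Klf4 included, 12 had a negative log2 fold change, against 5770 of 11648 over all genes. Among the 14, 1 was called and the median was −0.32, against 0.00 over all genes. The list's median was −0.15 with cells thinned before gating and −0.05 in members without Kit and Cd34, each over 8 genes. Spi1 (−0.07 ± 0.20) and Zeb2 (−0.04 ± 0.19) stood near 0. Of 11 granulocyte transcription factor genes 0 were called by edgeR, with 1 at an unadjusted p under 0.05 and a median of 0.15. That 1 was Cebpe, at 24.6 and 25.6 CPM in fusion members and 14.04 CPM in wild-type members (0.84 ± 0.17, edgeR adjusted p = 0.149). It was called without cells holding genes of other lineages (1.42 ± 0.23, edgeR adjusted p = 0.0203).

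Mpeg1, which encodes the pore-forming protein perforin-2 of macrophages (chromosome 19, 12460779 to 12465283), had 22.8 and 21.6 CPM in fusion members and 75.4 CPM in wild-type members. The fusion libraries were nearly equal and far below wild type (−1.77 ± 0.14, edgeR adjusted p = 0.00635). Fn1, the fibronectin gene, had 1.16 and 2.87 CPM in fusion members against 16.1 CPM in wild-type members (−2.90 ± 0.37, edgeR adjusted p = 0.0358), and it was found in few members of any library and called in 7 of 15 alternative settings. Of 22 tested monocyte and macrophage genes, 4 fell (Ccr2, Cx3cr1, Mpeg1 and Fn1), 13 were lower and 0 higher at an unadjusted p under 0.05, and the median log2 fold change was −0.50. Over all genes tested, edgeR called 0.129% lower, and 4.15% were lower at an unadjusted p under 0.05. The list's median was −0.36 over 18 genes with cells thinned before gating. Ly6c2 was not among the lower genes: it had 641 and 774 CPM in fusion members and 663 CPM in wild-type members (0.09 ± 0.20), with wild type between the fusion libraries. Ms4a6c had 340 and 314 CPM in fusion members and 462 CPM in wild-type members (−0.50 ± 0.18, edgeR adjusted p = 0.583), and its neighbour in the same gene family, Ms4a6b, fell at 27.3 and 26.4 CPM against 70.8 CPM (−1.40 ± 0.14, edgeR adjusted p = 0.012). The sources used here do not say how tags shared by such similar genes were counted.

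**Figure D3:**
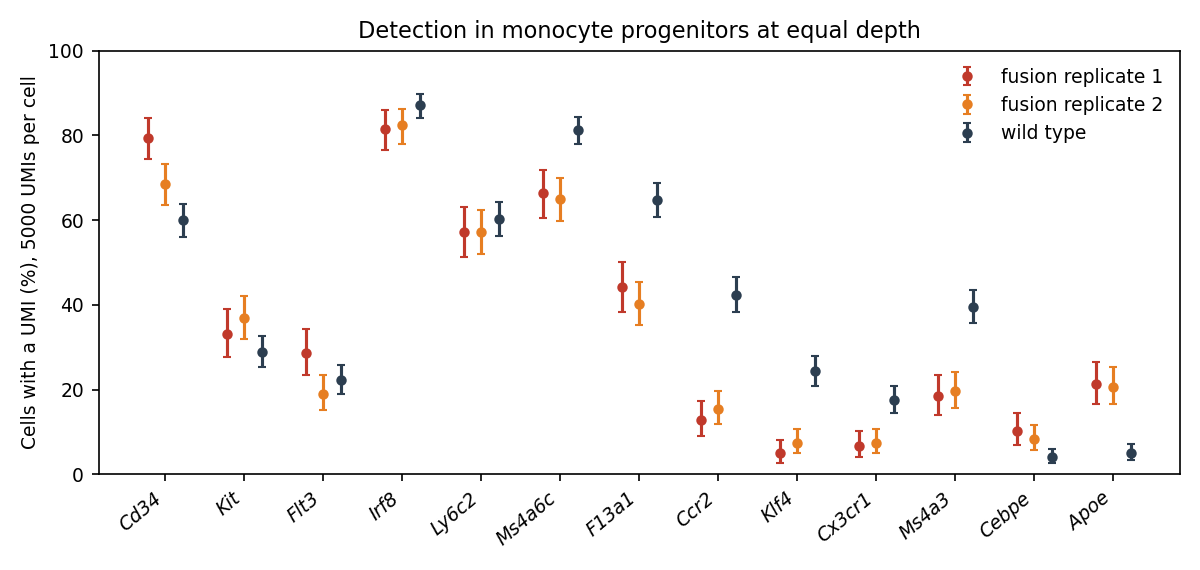
Percentage of monocyte progenitors with at least 1 UMI of each of 13 genes (y axis) after thinning every cell to 5000 UMIs, per library, with Clopper-Pearson 95% intervals. Ccr2, Klf4, Cx3cr1, Ms4a3 and Ms4a6c are found in fewer fusion than wild-type members, Apoe in more, and the intervals for Ly6c2 overlap; Irf8 and F13a1 were used by the gate and are shown as a description.

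Ms4a3, a marker of granulocyte-monocyte progenitors (chromosome 19, 11629496 to 11640851), had 97.8 and 99.1 CPM in fusion members and 240.5 CPM in wild-type members. The fusion libraries were almost alike and below wild type (−1.29 ± 0.16, edgeR adjusted p = 0.0269). The proteases of the primary granule were not called: Elane was at −0.24 ± 0.21, Prtn3 at −0.35 ± 0.20 and Ctsg at 0.37 ± 0.21 on the log2 scale. Of 12 tested primary granule genes, Ms4a3 alone was called, and the median was −0.26, which turned to 0.09 with cells thinned before gating and came to −0.04 without cells holding genes of other lineages. Of 14 late granule genes other than those of the gate, 0 were called by edgeR, with 2 higher and 4 lower at an unadjusted p under 0.05. Among them, Mmp8 had 43.6 and 102 CPM in fusion members and 14.6 CPM in wild-type members, with the fusion libraries far apart. Mmp8 was called higher without cells holding genes of other lineages (2.81 ± 0.42).

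Ccnd1, the gene for cyclin D1, which drives entry into S phase (chromosome 7, 144929931 to 144939925), had the smallest adjusted p in the comparison. It had 13.1 and 14.8 CPM in fusion members and 65.8 CPM in wild-type members (−2.23 ± 0.15, edgeR adjusted p = 0.00392). The cyclin D2 gene Ccnd2 was at 239 and 301 CPM in fusion members and 223 CPM in wild-type members (0.28 ± 0.20, edgeR adjusted p = 0.921), with wild type below both. Replication and mitosis genes had small fold changes. Of 26 S phase genes 0 were called by edgeR (2 lower at an unadjusted p under 0.05), with a median of −0.07 and a range of −0.40 to 0.18, and of 30 G2 and M phase genes 0 were called (0 at an unadjusted p under 0.05), with a median of −0.06. The proliferation marker Mki67 was found in 56.5% and 59.8% of thinned fusion members (50.5 to 62.4% and 54.5 to 64.9%), against 65.3% (61.4 to 69.1%) of wild-type members, and the intervals overlapped.

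Log2 fold changes were negative for 5770 of all 11648 genes tested. Of all genes, edgeR called 0.129% lower, and 4.15% were lower at an unadjusted p under 0.05. Immediate early genes, which are switched on within minutes of a stimulus, had negative log2 fold changes for 16 of the 19 tested. Of these genes, Klf4 and Atf3 fell, 10 were lower and 1 higher at an unadjusted p under 0.05, and the median was −0.51. With cells thinned before gating the median was −0.75 over 16 genes. Atf3, a stress-induced factor, had 5.82 and 7.18 CPM in fusion members and 24.7 CPM in wild-type members (−1.90 ± 0.21, edgeR adjusted p = 0.0184). Fos had 142 and 106 CPM in fusion members and 332 CPM in wild-type members (−1.43 ± 0.20, edgeR adjusted p = 0.0522), and Fosb had 22.4 and 11.4 CPM against 59.9 CPM (−1.87 ± 0.28, edgeR adjusted p = 0.0583). These genes were lower in each fusion library, and Fos and Fosb were called without cells holding genes of other lineages (edgeR adjusted p = 0.0062 and 0.00253). Of 17 alternative settings with a test, Fos was called in 7 and Fosb in 6. The summed plain CPM of the list was 1799 and 1370 in fusion members against 2372 in wild-type members, and 3070 and 2405 in fusion lymphocytes against 2669 in wild-type lymphocytes. In lymphocytes the wild-type sum lay between the fusion sums.

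Of 22 interferon response genes, 1 fell, 11 were lower and 0 higher at an unadjusted p under 0.05, and the median was −0.61. Over all genes tested, edgeR called 0.129% lower, and 4.15% were lower at an unadjusted p under 0.05. With cells thinned before gating, 9 genes of the list were tested and their median was −0.25. The gene that fell was Ifi209, an interferon-inducible member of the PYHIN family (chromosome 1, 173630917 to 173647928), with 28.3 and 22.6 CPM in fusion members and 80.2 CPM in wild-type members (−1.67 ± 0.16, edgeR adjusted p = 0.012). Isg15, a ubiquitin-like modifier, had 6.98 and 5.85 CPM in fusion members and 15.1 CPM in wild-type members (−1.25 ± 0.24, edgeR adjusted p = 0.113). Both genes were lower in each fusion library. Class I histocompatibility genes leaned the same way, with 13 of 14 negative, against 5770 of 11648 over all genes. Of the 14, 0 were called by edgeR and 3 were lower at an unadjusted p under 0.05, at a median of −0.16. Ifi209 was also at 94.0 and 84.7 plain CPM in fusion lymphocytes, against 152 in wild-type lymphocytes.

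Of 12 tested receptor genes for growth factors and cytokines, 0 were called by edgeR, with 1 higher and 2 lower at an unadjusted p under 0.05, and the median was −0.07. Csf2ra and Csf2rb, subunits of the receptor for granulocyte-macrophage colony-stimulating factor, were at −0.12 ± 0.15 and −0.17, Csf3r, the granulocyte factor receptor, at 0.26 ± 0.15, and Kit at 0.00 ± 0.17 on the log2 scale. Il10ra, the interleukin-10 receptor gene, had 21.9 and 15.6 CPM in fusion members and 6.63 CPM in wild-type members (1.48 ± 0.26, edgeR adjusted p = 0.0935), and it was called without cells holding genes of other lineages (1.42 ± 0.24, edgeR adjusted p = 0.0261). Cd34 had 330.0 and 246 CPM in fusion members and 218 CPM in wild-type members (0.40 ± 0.22, edgeR adjusted p = 0.856). Of 14 stem and progenitor genes 0 were called by edgeR, with 4 higher and 1 lower at an unadjusted p under 0.05. Without cells holding genes of other lineages, Gata2 (1.42 ± 0.26) and Adgrg1 (0.98 ± 0.18) of that list were called higher.

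Nrp1, a receptor for semaphorins and vascular growth factor, and Gria3, a glutamate receptor subunit gene, fell as well. Gria3 (X chromosome, 41400854 to 41678601) had 60.2 and 63.4 CPM in fusion members and 161 CPM in wild-type members (−1.38 ± 0.15, edgeR adjusted p = 0.0173), and Nrp1 had 9.31 and 9.93 CPM against 32.5 CPM (−1.75 ± 0.18, edgeR adjusted p = 0.0139). In both, the fusion libraries were close together and below wild type. The histone gene Hist1h3c had 95.3 and 111 CPM in fusion members and 231 CPM in wild-type members and was not called (−1.16 ± 0.17, edgeR adjusted p = 0.0522). It was called without cells holding genes of other lineages (−1.14 ± 0.21). All 18 tested chaperone genes of the endoplasmic reticulum had negative log2 fold changes, between −0.56 and −0.01, with 0 called by edgeR, 3 lower at an unadjusted p under 0.05 and a median of −0.31. Over all 11648 genes tested, 5770 were negative and 4.15% were lower at an unadjusted edgeR p under 0.05. Of 17 lysosomal and cathepsin genes 0 were called by edgeR, with 6 lower and 1 higher at an unadjusted p under 0.05. Among these, Ctsh, for cathepsin H, had 37.9 and 38.5 CPM in fusion members and 70.4 CPM in wild-type members (−0.88 ± 0.14, edgeR adjusted p = 0.0583). Ctsh was called without cells holding genes of other lineages (−1.11 ± 0.15).

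Apoe, which encodes the lipid carrier apolipoprotein E (chromosome 7, 19696109 to 19699188), rose, with 66.8 and 78.2 CPM in fusion members and 16.4 CPM in wild-type members (2.15 ± 0.17, edgeR adjusted p = 0.00635). It was found in 21.2% and 20.7% of thinned fusion members, against 5.03% of wild-type members. In lymphocytes Apoe had 84.3 and 161 plain CPM in fusion, against 103 in wild type, with wild type between the fusion libraries, and the thinned shares were 14.1% and 15.7% against 5.94%. In each library the members were below the lymphocytes (69.8 and 76.2 plain CPM in fusion members, against 16.1 in wild-type members), and the part of free RNA in the rise was not tested. With cells thinned before gating, Apoe was at 1.24 and not called (edgeR adjusted p = 0.514). Of 14 lipid transport genes Apoe alone was called, and of 17 cholesterol synthesis genes 0 were called by edgeR (0 at an unadjusted p under 0.05).

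Spp1, the osteopontin gene, had 16.3 and 17.99 CPM in fusion members and 3.91 CPM in wild-type members (2.13 ± 0.24, edgeR adjusted p = 0.0191). Cpa3, a carboxypeptidase gene of mast cells and their progenitors (chromosome 3, 20215620 to 20242181), had 51.0 and 47.2 CPM in fusion members and 20.3 CPM in wild-type members (1.27 ± 0.15, edgeR adjusted p = 0.0269). Pglyrp1, which encodes a bacteria-binding protein of neutrophil granules, had 38.1 and 43.2 CPM against 18.02 CPM (1.18 ± 0.16, edgeR adjusted p = 0.0485). Both fusion libraries were above wild type for all 3, but Cpa3 was called in 5 of 16 alternative settings and Pglyrp1 in 3 of 17. Pglyrp1 lay at 166 and 102 plain CPM in fusion lymphocytes, against 155 in wild-type lymphocytes, above its level in the members. Neurl3, Nrgn and Atxn1 were higher by size and not called, by 1.40, 1.22 and 1.09 on the log2 scale. Neurl3 (1.44 ± 0.21) and Atxn1 (1.10 ± 0.21) were called without cells holding genes of other lineages.

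**Figure D4:**
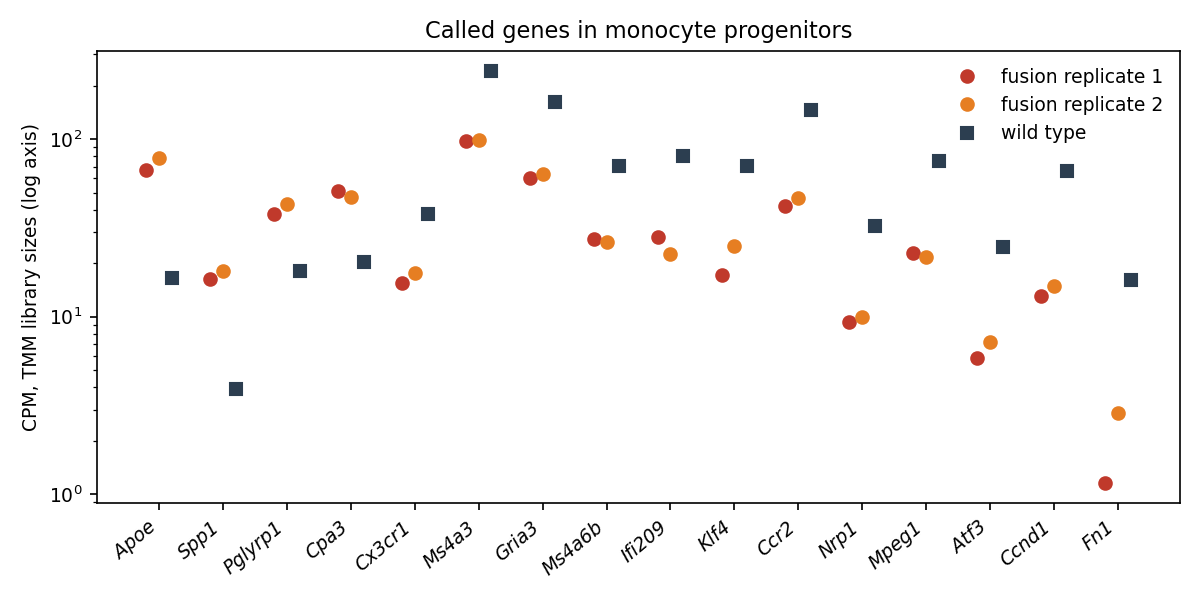
CPM on TMM library sizes (log axis) of 16 called genes in monocyte progenitors, with circles for the fusion libraries and squares for wild type. The fusion circles lie above the wild-type square for Apoe, Spp1, Pglyrp1 and Cpa3 and below it for the other 12 genes. They lie apart from each other for Fn1 and Klf4.

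Markers of other cell types were present in the members at low levels and not evenly. The 5 erythroid markers summed to 87.0 and 255 plain CPM in fusion members, against 63.5 in wild-type members, with Car1 the most abundant at 75.0, 216 and 36.5 in fusion replicate 1, fusion replicate 2 and wild type. Basophil and mast cell markers summed to 239 and 306 in fusion members against 163 in wild-type members, and megakaryocyte markers to 11.1 and 27.6 against 4.45. The erythroid, basophil and mast cell, and megakaryocyte sums were higher in both fusion libraries. The 6 neutrophil markers summed to 345 and 403 in fusion members, against 227 in wild-type members. They include Camp, Ngp, Ltf and Lcn2, which the gate limited, so that sum only describes the members. The longer lists were not all higher in both fusion libraries: the 18 erythroid genes summed to 315 and 726 plain CPM in fusion members against 316 in wild-type members, and the 14 late granule genes outside the gate to 1648 and 2948 against 1859, so fusion replicate 1 was not above wild type. B cell markers summed to 40.3 and 37.1 in fusion members against 51.6 in wild-type members, nearly all of it Cd79b. For T and NK cells the sums, 166 and 161 in fusion members against 138 in wild-type members, were almost all Nkg7, with Cd3e at 0 in both fusion libraries. Of 6 tested T and NK cell genes 5 had a negative log2 fold change, 0 were called by edgeR, 5 were lower at an unadjusted p under 0.05 and the median was −2.51. The filter on low counts could be passed through wild type alone, so these counts and this median are no measure of the list. Of its 13 genes, 6, 1 and 0 had no counts in fusion replicate 1, fusion replicate 2 and wild type. The list summed to 168 and 164 plain CPM in fusion members against 150 in wild-type members. The part of other cell types in the called genes was not tested.

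In lymphocytes, 12 of the 15 genes that fell were lower in both fusion libraries than in wild type. Of the 4 that rose, 0 were higher in both. The same share over all genes tested is not given here, so these counts do not set the called genes apart. Vpreb3 and Hbb-bs were higher in both fusion lymphocyte sums, and for Cx3cr1 wild type lay between them. Ms4a3 had 2.76 and 4.08 plain CPM in fusion lymphocytes against 27.4 in wild-type lymphocytes, Mpeg1 had 3.46 and 4.59 against 25.3, Ccnd1 1.38 and 2.04 against 9.95, and Gria3 3.46 and 5.10 against 11.8. For these genes, named here after their values were seen, the lymphocyte level was below the level in members of the same library. Fn1 had 0.69 and 1.02 plain CPM in fusion lymphocytes against 22.3 in wild-type lymphocytes, and there the wild-type lymphocytes exceeded the wild-type members, at 15.7. The part of free RNA in these falls was not tested.

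Called at low levels were also the B cell gene Vpreb3, at 0.83 and 0.44 CPM in fusion members and 8.31 CPM in wild-type members (−3.76 ± 0.47, edgeR adjusted p = 0.0303), and the haemoglobin genes Hbb-bt (−2.30 ± 0.24) and Hbb-bs (−1.71 ± 0.23), whose sequences are so alike that tags could be lost or split between them. Their level in the members was at most 0.143 times that over all cells. Of 9 tested B cell genes, Vpreb3 alone was called, with 7 lower at an unadjusted p under 0.05, and of 17 erythroid genes the 2 haemoglobin genes were called, with 6 lower and 5 higher. In these lists too, a gene could pass the filter on low counts through wild type alone. The B cell list summed to 262 and 230 plain CPM in fusion members against 323 in wild-type members. Among members with under 3 summed UMIs of 9 erythroid, lymphoid, basophil and platelet genes (205 and 225 in fusion and 410 in wild type), 15 of the 19 genes were still called, of 18 higher and 40 lower among 10820 genes (0.536%). There Ccr2 was at −2.02 ± 0.15, Klf4 at −1.99 ± 0.18, Mpeg1 at −1.91 ± 0.15, Ccnd1 at −2.28 ± 0.22 and Apoe at 2.17 ± 0.21, each at least as large as with those cells. Spp1 (1.88 ± 0.28), Nrp1 (−1.66 ± 0.22), Gria3 (−1.26 ± 0.18), Ms4a3 (−1.22 ± 0.17) and Ifi209 (−1.66 ± 0.16) were still called but smaller than with those cells. The other 4 of the 19 were not called there: Hbb-bt was at −0.32 ± 0.50 (edgeR adjusted p = 0.976), Hbb-bs turned to 0.62 ± 0.39 (0.868), Cx3cr1 was at −1.05 ± 0.22 (0.0618), and Vpreb3 was too low to be tested.

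**Figure D5:**
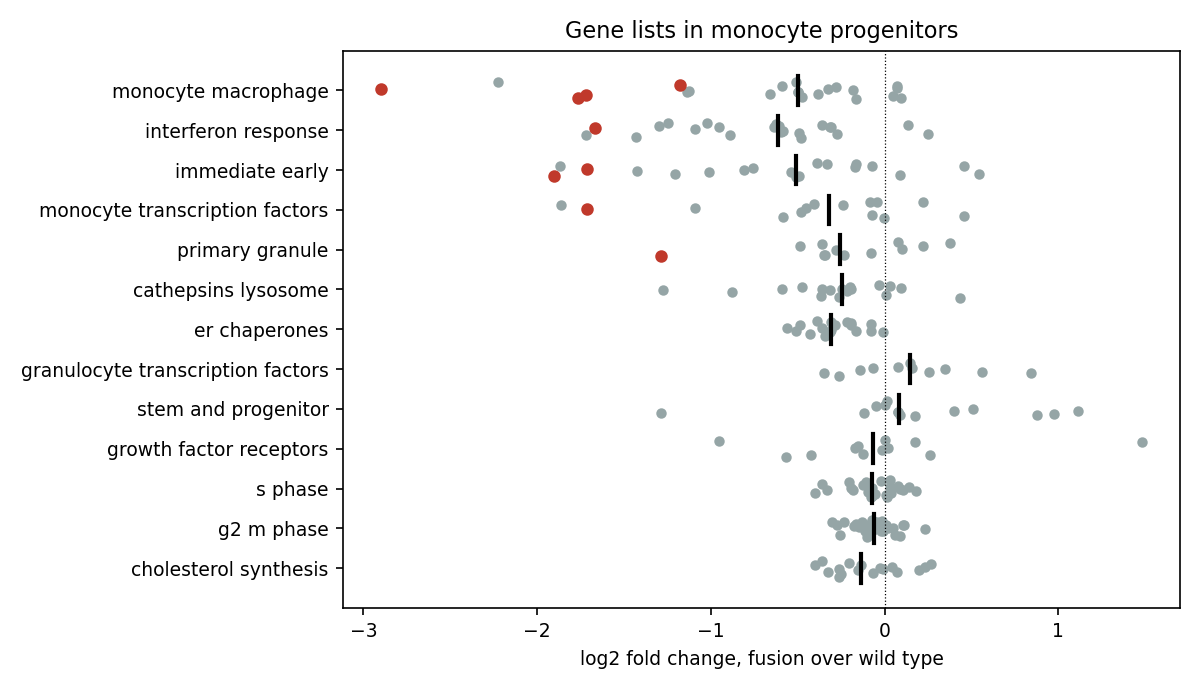
Log2 fold change (fusion over wild type, x axis) of each tested gene in 13 gene lists, with 1 point per gene, red for called genes and a black bar at the list's median. The medians of the monocyte and macrophage, interferon response and immediate early lists lie at −0.50, −0.61 and −0.51, and those of the S and G2/M phase lists at −0.07 and −0.06.

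The fusion effect could be set beside that in granulocyte progenitors of the same libraries, where edgeR called 12 of 10782 genes (0.111%). The log2 fold changes were −1.72 in monocyte progenitors and −1.70 in granulocyte progenitors for Ccr2, −1.77 and −1.73 for Mpeg1, and 2.15 and 1.86 for Apoe. The differences between these effects, in a fit with the library as a block, were −0.01 ± 0.20, −0.03 ± 0.28 and 0.29 ± 0.15, and none was called (edgeR adjusted p = 1, 1 and 0.857). In that fit the effect on Ms4a3 was lower in monocyte progenitors by −0.47 ± 0.08 on the log2 scale (edgeR adjusted p = 1.04e-05), and that on Fos, called in neither population alone, by −0.80 ± 0.13 (edgeR adjusted p = 2.06e-07). For Gria3, which fell in both populations (−1.38 and −2.01), the difference was 0.64 ± 0.17 (edgeR adjusted p = 0.0214). In all, 62 of 10958 genes (0.566%) differed in their fusion effect, but 0 without the block (139 at an unadjusted p under 0.05). In the fit with the block only the fusion libraries gave an estimate of spread, as in the genotype test. Its small p-values rest on that pair of libraries.

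The Ly6c2 monocytes of the same marrow, gated on low Mpo, held 233 and 219 fusion cells and 359 wild-type cells. In them Ccr2 had 508 and 501 plain CPM in fusion, against 1002 in wild type, and Klf4 190 and 162 against 447, lower in both fusion libraries as in the progenitors. Ly6c2 had 4857 and 4712 plain CPM in fusion monocytes, against 2076 in wild type, and that gene helped to define their gate.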

How the data were processed

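Three-prime single-cell libraries (10x Genomics version 3.1) of mouse bone marrow, 2 fusion and 1 wild type, were analysed from the UMI count matrices that the authors deposited, which are raw counts per gene and barcode. Per the submitters' processing notes, bcl2fastq 2.20.0.422 and Cell Ranger 5.0.1 with GRCm38 were used, while the matrix headers name version 5.0.0. A barcode was kept from 1000 UMIs and 400 genes upward if mitochondrial genes gave no more than 10% of its UMIs; doublets stayed in. Counts were summed per library over gated cells and tested with edgeR 4.0.16 (TMM, filterByExpr, quasi-likelihood, Benjamini-Hochberg adjusted p under 0.05), leaving out 9 genes of the gate, and with DESeq2 1.42.0 as an alternative. The scripts were tested on simulated data, where 85 of 195 genes changed 2-fold were called and 190 of 199 changed 4-fold. A gene that was not called may therefore still have changed. Gene positions are from GENCODE M21 (GRCm38), found for 32235 of 32285 genes. Doublets were predicted with scrublet in scanpy 1.11.5 (expected rate 0.06). Intervals on shares are Clopper-Pearson, at 95%, and cover only counting error.

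The members, gene lists and named genes were chosen with earlier results of these data known. Named were up to 10 called genes per direction with a mean of at least 20 CPM and at least 0.2 times their level over all cells, genes at least 1 apart on the log2 scale, a fixed panel and up to 5 members of each list. Outside that rule, Spp1, Pglyrp1 and Nrp1 were named after their values were seen. Population differences were named from 50 CPM upward.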

Additional observations from a re-analysis of the deposited data

Results flagged for a closer look

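The fusion effect differed between monocyte progenitors and granulocyte progenitors for 62 genes by the edgeR interaction test with the library as a block. The spread in that test came from the fusion libraries alone. Values below are the log2 fold change in monocyte progenitors minus that in granulocyte progenitors, for the 5 genes with the largest difference in each direction, and most of them were at low levels or uneven between the fusion libraries.

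The difference was 4.38 for Cd74, the invariant chain of class II histocompatibility molecules, which had 7.12 and 22.3 plain CPM in fusion monocyte progenitors against 4.17 in wild type. The basophil protease genes Prss34 and Mcpt8 differed by 3.83 and 2.41. Prss34 had 115 and 121 plain CPM in fusion monocyte progenitors against 64.1 in wild type, and 4.05 and 31.4 in fusion granulocyte progenitors against 150 in wild type. Stfa2l1 differed by 3.74 and the immunoglobulin light chain gene Igkc by 3.46. Igkc is far higher in lymphocytes of the same libraries, at 9830 plain CPM or more.

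In the other direction, 3830403N18Rik differed by −6.12, with 0 counts in both fusion monocyte progenitor sums. Pf4 differed by −3.81, and its 558.9 plain CPM in the granulocyte progenitors of fusion replicate 2 carried that value. Trib2 differed by −3.47 and Tspan33 by −1.67. Chil3, a secreted protein of myeloid cells, differed by −1.89, with 18.8 and 22.3 plain CPM in fusion monocyte progenitors against 30.2 in wild type, and 118 and 83.5 in fusion granulocyte progenitors against 37.2 in wild type. Without the block 0 of the 62 were called.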

How the results depend on the processing

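The share ratio of monocyte progenitors stayed below 1 in every alternative run, between 0.474 and 0.566 except for 0.913 among Mpo-rich cells, and was 0.478 to 0.641 with 1 fusion library left out. The count of genes called between genotypes was 19 and came to 0 with Mpo of at least 5 UMIs, with equal cells, with no filter on low counts and in members with 5 or more Ly6c2 UMIs (449 at an unadjusted edgeR p under 0.05, chosen after seeing the data). It was 50 without predicted doublets, 58 without cells holding genes of other lineages, 11 without barcodes found in more than 1 library, 10 in members with Kit or Cd34, 67 with under 5 Ly6c2 UMIs, 10 in members with F13a1 and 76 (25 higher and 51 lower) with DESeq2 size factors; the cause was not tested. The 19 genes kept their direction in every alternative that gave a value, except Hbb-bs, at 0.62 without cells holding genes of other lineages. No paired analysis was possible for the genotype comparison because the labels give no shared replicate numbers and wild type is 1 library. With no replicate block, the population comparison gave 1175 genes in place of 3444 and the difference of fusion effects 0 in place of 62. Thinned cells gave 927 in the population comparison, and leaving out a library 2327 to 2979. Of 31 lists, 24 had a median below 0, against 14 of the 22 with a median in members without Kit and Cd34, of which there were 7, 18 and 34. Over the alternative settings with a test, the adjusted p ranged between 9.45e-06 and 0.801 for Ccr2 and between 4.94e-07 and 0.514 for Apoe. Of 17 such settings Ccr2 and Ifi209 were called in 12, Apoe, Ccnd1, Gria3 and Mpeg1 in 11, Ms4a6b and Nrp1 in 10, Klf4, Ms4a3 and Spp1 in 9 and Pglyrp1 in 3. Of 16, Hbb-bt was called in 8, Cpa3 in 5 and Cx3cr1 and Hbb-bs in 4, and of 15, Atf3 in 10, Fn1 in 7 and Vpreb3 in 5. Fos and Fosb, not among the 19, were called in 7 and 6 of 17. Cebpe, Mmp8, Il10ra, Gata2, Adgrg1, Hist1h3c, Ctsh, Neurl3 and Atxn1 were called without cells holding genes of other lineages. Their calls over the other settings are not given here.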
